A study of Mus musculus with 4 samples.

Results

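The genes described here are 7 genes of the MHC class II pathway, chosen by name: H2-Aa, H2-Ab1, H2-Eb1, Cd74, H2-DMa, H2-DMb1 and Ciita, out of 41862 gene columns. They were followed through 6 cell classes of 4 single-cell libraries, in the 7899 of 12987 barcodes that held at least 500 UMIs, of which at most 20% were mitochondrial. A UMI is a molecular tag that marks 1 captured RNA molecule. All mice were Aldh1l1CreERT2-TdTomato on C57BL6, a reporter in which the promoter of the astrocyte gene Aldh1l1 drives a tamoxifen-dependent Cre recombinase that switches on TdTomato. The central nervous system of naive mice, or of mice in the peak phase of EAE (experimental autoimmune encephalomyelitis, a T cell-driven model of multiple sclerosis induced with the myelin peptide MOG35-55 in complete Freund's adjuvant), was digested with papain. TdTomato+ cells with surface LAMP1, a lysosomal membrane protein, were then sorted without or with surface TRAIL, a death ligand. This gave 4 groups with 1 inDrops library each: TRAIL- and TRAIL+ cells of naive mice, and TRAIL- and TRAIL+ cells of EAE mice. Where 4 values follow each other for a class they are in this order. The design text gives 3 naive and 3 EAE mice and does not say how mice were divided over libraries.

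The libraries held 2803 to 3703 barcodes and 2856696 to 3984975 UMIs, with medians of 949, 1505, 1191 and 1907.5 UMIs per kept barcode. Any pair of libraries shared 68 to 114 barcode sequences, and 23 to 40 among kept barcodes. The labels name the cells astrocytes, but astrocyte markers led 2 small clusters that together held only 35, 134, 3 and 8 kept barcodes. Most kept cells carried the markers of microglia or of vessels. With 1 library per group there is no replicate check: levels are given as UMIs per 1000000 UMIs of a class (CPM) with exact Poisson 95% intervals, shares of cells with exact binomial ones, and ratios with exact Clopper-Pearson ones. The intervals cover counting error only, and UMIs of 1 cell are not independent of each other. Without replicates, a gene was called higher or lower when 2 class sums differed at least 2-fold, with a mean of at least 50 CPM and at least 20 UMIs over both.

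MHC class II molecules present peptides from taken-up protein to CD4+ T cells. H2-Aa and H2-Ab1 encode the alpha and beta chains of I-A, and H2-Eb1 the beta chain of I-E. Cd74 encodes the invariant chain, which fills the groove during assembly and guides the complex to endosomes, where H2-DM, encoded by H2-DMa and H2-DMb1, helps exchange the remaining fragment for peptide. Ciita encodes the coactivator that switches these genes on together, acting through a protein complex seated on X and Y boxes in their promoters, and interferon gamma from T cells is its best known inducer outside professional antigen-presenting cells. C57BL6 mice do not make the I-E alpha chain, and H2-Ea was not analysed here.

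The promoters were read for letters of the X and Y boxes. The set of RefSeq (GRCm38.p6) promoters at hand covered 4 of the 7 genes, so H2-Ab1, Cd74 and Ciita were not read. Of these 4, 3 held both: H2-Aa, H2-Eb1 and H2-DMb1, but not H2-DMa. The runs below are on the gene's strand, 5′ to 3′, with an X-type core (GNAACT) or a Y-type box (TGATTGG) in capitals.
H2-Aa X, chr17:34287887-34287908, minus strand: gctgGCAACTttgacgtcatca
H2-Aa Y, chr17:34287863-34287877, minus strand: tttcTGATTGGttct
H2-Eb1 X, chr17:34305772-34305793, plus strand: actaGCAACTgatgatgctgga
H2-Eb1 Y, chr17:34305802-34305816, plus strand: atgcTGATTGGctcc
H2-DMb1 X, chr17:34153093-34153114, plus strand: cctaGTAACTgatgatgctagg
H2-DMb1 Y, chr17:34153124-34153138, plus strand: tcagTGATTGGtctg
The letters between the core and the box numbered 25, 24 and 25 bases in H2-Aa, H2-Eb1 and H2-DMb1, and the Y box began 50, 61 and 63 bases before the RefSeq start. For H2-DMb1 both runs lie inside the span of the GENCODE M21 gene model, which starts at 34153072. Neither RefSeq start of H2-DMa had these letters in its window. The letters were chosen after these promoters had been read. Of 32851 promoter windows of 250 bases, 37.3% held the core and 7.23% the box on either strand, and 0.213% held the core followed by the box within 60 bases on the gene's strand. A match is a description of the letters and not evidence of binding.

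In GRCm38 (GENCODE M21 models), 5 genes lie in the class II region of chromosome 17. H2-DMa spans 34119541 to 34139101, H2-DMb1 34153072 to 34160230, H2-Ab1 34257689 to 34269419 and H2-Eb1 34305867 to 34316674, all on the plus strand, and H2-Aa spans 34282744 to 34287823 on the minus strand. Cd74 lies on chromosome 18 at 60803848 to 60812652 and Ciita on chromosome 16 at 10480059 to 10528418, both on the plus strand. The strand used for counting was not given in the sources used here. Reads of H2-Eb1 and its antisense gene Gm20513, of H2-DMa and Brd2, and of Ciita and Dexi therefore cannot be told apart where the models overlap. Cd74 and Mir5107, and H2-DMa and CR974462.3, overlap on the same strand, so that the strand would not part their reads. H2-DMb1 has a near-identical copy, H2-DMb2, and its counts are uncertain for that reason.

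The classes were clusters made without class II genes and named from marker genes. Microglia numbered 295, 1865, 275 and 1627 cells in the 4 libraries, and all 15 of their markers were seen in at least 20% of cells in every library. Monocyte-like cells, with Plac8, Chil3, Ly6c2 and Ccr2, numbered 9, 4, 208 and 108, and were described in EAE only. In EAE TRAIL- 12 of 15 monocyte markers and 4 of 15 microglia markers reached 20% of these cells, and in EAE TRAIL+ 10 and 8 did. Border macrophage-like cells, with Pf4 and Mrc1, numbered 11, 80, 6 and 42, and were described in the TRAIL+ libraries, where 9 of 13 of their markers reached 20% of cells. Endothelium held 1163, 56, 498 and 3 cells, pericytes or smooth muscle 512, 16, 464 and 4, and choroid plexus epithelium 90, 10, 41 and 1. A class was compared between libraries only where each held at least 20 cells, which left the vascular and choroid plexus classes mainly to the TRAIL- sort.

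H2-Aa, the I-A alpha chain, was nearly absent from naive microglia and abundant in EAE microglia. Its level in microglia was 4.24 CPM (0.513 to 15.3) in naive TRAIL-, 26.9 CPM (21.4 to 33.3) in naive TRAIL+, 1958 CPM (1844 to 2077) in EAE TRAIL- and 1274 CPM (1236 to 1313) in EAE TRAIL+. Both EAE libraries stood far above both naive libraries. EAE over naive was 47.4-fold (38.2 to 59.7) in TRAIL+ and 462-fold (128 to 3819) in TRAIL-, where the naive sum held 2 UMIs. H2-Aa reached 4228 CPM in EAE TRAIL- and 9307 CPM in EAE TRAIL+ monocytes, and 5348 CPM in naive and 12030 CPM in EAE border macrophages of the TRAIL+ sort. In the TRAIL- sort, endothelium held 16.04 CPM in naive mice and 86.8 CPM in EAE, pericytes 11.5 and 138 CPM, and choroid plexus 0 UMIs, where 3 UMIs would be 8.71 CPM, and 204 CPM. In EAE TRAIL- the order was thus monocytes, microglia, pericytes, endothelium, with overlapping intervals between pericytes (107 to 175) and endothelium (64.2 to 115). Choroid plexus (140 to 287) has no firm place in this order, since 1 cell held most of its class II UMIs, and without that cell H2-Aa, H2-Ab1, H2-Eb1 and Cd74 together stood at 104 CPM.

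H2-Ab1, the I-A beta chain, followed the same division at fewer UMIs. Microglia held 2.12, 6.15, 365 and 204 CPM in the 4 libraries, a difference of 33.1-fold (21.0 to 55.4) between EAE and naive TRAIL+. The TRAIL- ratio, 172-fold (30.5 to 6829), rests on 1 naive UMI. Monocytes held 993 and 2001 CPM in EAE TRAIL- and EAE TRAIL+, and border macrophages 665 and 2004 CPM in naive and EAE TRAIL+. The vascular classes held at most 24.8 CPM of H2-Ab1 in EAE TRAIL-, and choroid plexus 86.6 CPM.

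H2-Eb1, the I-E beta chain, was read from the same cells although C57BL6 mice lack its alpha partner. Microglia held 8.48, 15.2, 1023 and 668 CPM in the same order of libraries, and EAE over naive was 43.9-fold (32.9 to 59.97) in TRAIL+ and 121-fold (46.9 to 445) in TRAIL-. Monocytes held 2008 CPM in EAE TRAIL- and 3996 CPM in EAE TRAIL+. Border macrophages held 3823 CPM in naive and 6973 CPM in EAE TRAIL+. Endothelium, pericytes and choroid plexus of EAE TRAIL- held 40.7, 63.7 and 111 CPM.

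Cd74, the invariant chain, was the only gene of these first 4 whose interval in naive TRAIL- microglia lay above that of the endothelium of the same library. Its level in microglia was 86.9 CPM (62.4 to 118) in naive TRAIL-, 98.7 CPM (88.0 to 111) in naive TRAIL+, 3068 CPM (2925 to 3216) in EAE TRAIL- and 2458 CPM (2404 to 2512) in EAE TRAIL+. The 2 naive libraries overlapped and the 2 EAE libraries did not, TRAIL- being higher. EAE over naive was 24.9-fold (22.2 to 28.0) in TRAIL+ and 35.3-fold (25.9 to 49.4) in TRAIL-. Monocytes held 4432 and 9993 CPM in EAE TRAIL- and EAE TRAIL+, and border macrophages 7086 and 12180 CPM in naive and EAE TRAIL+. In the TRAIL- sort Cd74 stood at 8.91 and 129 CPM in naive and EAE endothelium, at 9.17 and 107 CPM in pericytes and at 5.81 and 284 CPM in choroid plexus.

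H2-DMa and H2-DMb1, the peptide-loading pair, were already present in naive microglia and differed less between naive and EAE mice. H2-DMa stood at 127 CPM (97.1 to 164), 147 CPM (134 to 161), 381 CPM (332 to 435) and 236 CPM (220 to 254) in microglia of the 4 libraries. EAE over naive was 1.61-fold (1.43 to 1.81) in TRAIL+ and 2.99-fold (2.24 to 4.05) in TRAIL-. H2-DMb1 stood at 40.3, 86.8, 156 and 140 CPM, 1.61-fold (1.38 to 1.88) higher in EAE in TRAIL+ and 3.87-fold (2.34 to 6.73) in TRAIL-. H2-DMa of monocytes was 360 and 445 CPM, so in EAE TRAIL- it equalled that of microglia within counting error, at a microglia over monocyte ratio of 1.06 (0.867 to 1.29), while H2-Aa gave 0.463 (0.431 to 0.498). Border macrophages held 195 CPM of each DM gene in naive TRAIL+, and 435 CPM of H2-DMa and 382 CPM of H2-DMb1 in EAE TRAIL+. In naive TRAIL- endothelium the levels were 3.57 CPM for H2-DMa and 1.78 CPM for H2-DMb1.

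Ciita, the coactivator, was sparse everywhere. Microglia held 3, 8, 29 and 89 UMIs, or 6.36, 2.59, 51.3 and 27.1 CPM, in the 4 libraries. Both EAE intervals (34.4 to 73.7 and 21.7 to 33.3) lay above both naive ones (1.31 to 18.6 and 1.12 to 5.10). The ratio was 10.5 (5.08 to 24.95) in TRAIL+ and 8.07 (2.50 to 41.4) in TRAIL-, both under the level needed for a call. Monocytes held 72.1 and 87.7 CPM and border macrophages 71.0 and 145 CPM, while EAE TRAIL- endothelium and pericytes held 3 and 1 UMIs and choroid plexus none.

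**Figure D1:**
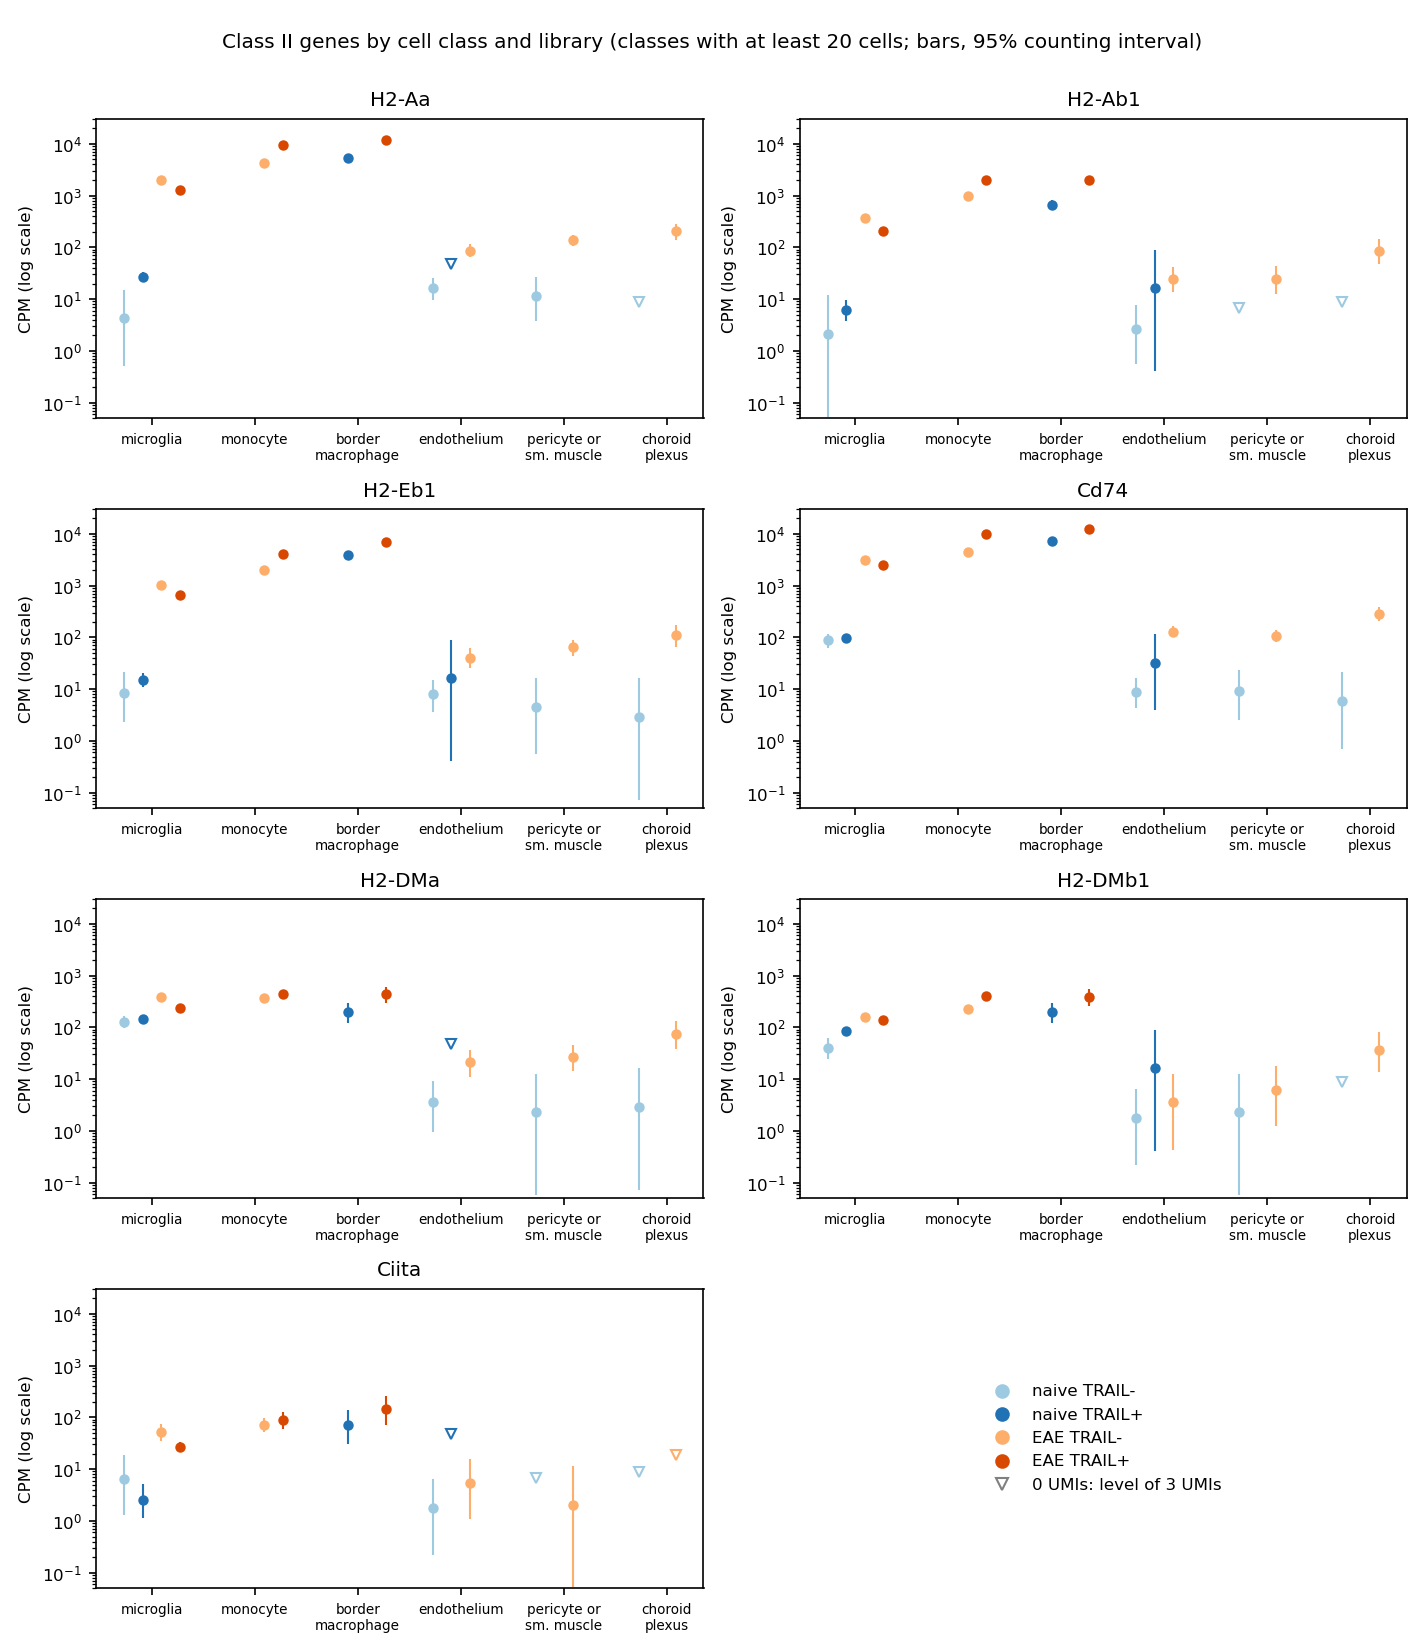
Level of each of the 7 genes in CPM (log axis) by cell class, 1 point per library with its 95% counting interval, and an open triangle at the level of 3 UMIs where none was found. H2-Aa of microglia sits at 4.24 and 26.9 CPM in naive and at 1958 and 1274 CPM in EAE libraries, while H2-DMa of the same cells moves only between 127 and 381 CPM.

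In microglia the call rule separated these roles in TRAIL+ but not in TRAIL-. Between EAE and naive TRAIL+, 4 of the 6 genes with enough UMIs were higher (both I-A chains, H2-Eb1 and Cd74), against 2.52% of the 3212 genes compared. The 2 DM genes were between the thresholds, and none of the 6 was lower. In TRAIL- all 6 were higher, against 8.04% of 3248 genes. The median log2 ratio of the 6 genes was 4.84 in TRAIL+ and 6.03 in TRAIL-, beside -0.05 and -0.09 over all genes compared. The summed UMIs of H2-Aa, H2-Ab1, H2-Eb1 and Cd74, called the 4-gene sum below, stood at 101.7, 147, 6414 and 4604 CPM, and were 31.3-fold (28.5 to 34.5) higher in EAE in TRAIL+ and 63.1-fold (47.5 to 85.7) in TRAIL-. Over 13 other settings the ratio ranged from 14.7 to 41.0 in TRAIL+ and from 6.34 to 65.5 in TRAIL-, where the naive sum rests on 48 UMIs in 295 cells.

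**Figure D2:**
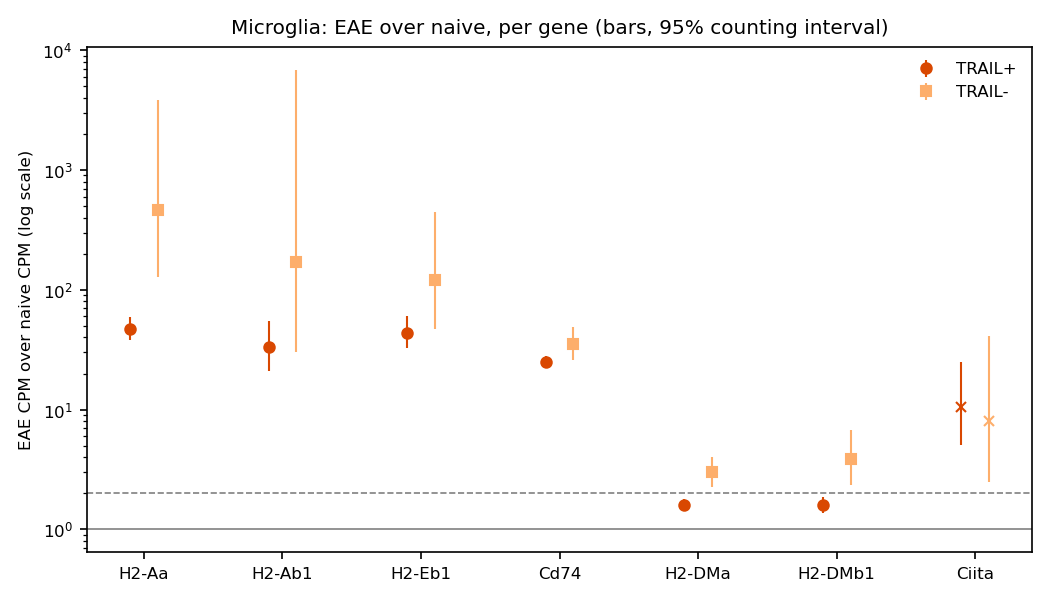
EAE over naive ratio of CPM in microglia (log axis) for each gene, in the TRAIL+ and the TRAIL- sort, with 95% counting intervals, crosses for ratios below the level minimum and a dashed line at 2-fold. The 3 chains and Cd74 lie at or above 24.9-fold in both sorts, and the DM genes lie between 1.61-fold and 3.87-fold.

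What naive microglia held was set against the cells beside them. In naive TRAIL- the 3 chain genes summed to 14.8 CPM (5.97 to 30.6) in microglia and 26.7 CPM (18.04 to 38.2) in endothelium. With these classes and at this depth, chain RNA was thus not detectable above the level of vessel cells. The microglial value rests on 2, 1 and 4 UMIs of H2-Aa, H2-Ab1 and H2-Eb1. Over 13 other settings the 4-gene ratio of naive TRAIL+ over TRAIL- microglia ranged from 0.217 to 1.70. The level in naive TRAIL- microglia therefore depends on how cells were classed. Cd74 was 9.75-fold (4.80 to 21.8) higher in microglia than in that endothelium, H2-DMa 35.7-fold (13.2 to 135), and H2-DMb1 22.6-fold on 2 endothelial UMIs. Only H2-DMa reached the level minimum there and was called higher, against 21.6% of the 3792 genes compared. In naive TRAIL+ 1 microglial cell held 83 of the 454 UMIs of the 4-gene sum, or 18.3%, and the sum was 120 CPM without that cell in place of 147. That cell belonged to a cluster of 58 cells led by Apoe and Lgals3bp, with H2-Eb1, Cd74 and H2-Aa also among the leading genes. In the 1807 other naive TRAIL+ microglia H2-Aa stood at 11.5 CPM, H2-Ab1 at 3.95, H2-Eb1 at 7.90 and Cd74 at 88.6 CPM.

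In EAE TRAIL- each chain stood above the level of the endothelium of that library. In microglia and endothelium H2-Aa stood at 1958 and 86.8 CPM, H2-Ab1 at 365 and 24.8 CPM, and H2-Eb1 at 1023 and 40.7 CPM. The 4-gene sum, which adds Cd74, was 6414 CPM in microglia and 282 CPM in endothelium, a ratio of 22.8 (19.4 to 26.9). All 6 genes with enough UMIs were higher in microglia, against 22.3% of 3716 genes. EAE TRAIL+ had no vessel class of 20 cells. Its barcodes of under 200 UMIs held 4704 CPM (4222 to 5226), close to the microglial 4604 CPM, and the part of free RNA in the microglial level of that library was not tested.

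At 500 UMIs drawn from every cell, 62.2% of EAE TRAIL- and 49.2% of EAE TRAIL+ microglia held a UMI of the 4-gene sum, against 5.42% and 5.09% in naive TRAIL- and TRAIL+. The shares at full depth were 75.6%, 69.8%, 12.2% and 12.9% in that order. The endothelium of EAE TRAIL- gave 6.02% at 500 UMIs, with a median depth of 1046 UMIs. Among microglia with any such UMI the median was 4 in EAE TRAIL-, 3 in EAE TRAIL+ and 1 in both naive libraries. The share with at least 10 was 8.73% and 4.92% in EAE TRAIL- and EAE TRAIL+. The tenth of the cells with most such UMIs held 41.8% of them in EAE TRAIL- and 51.0% in EAE TRAIL+ at this depth. Class II RNA was thus found in many EAE microglia, mostly at a few UMIs each, while a small part of the cells held a large share of it.

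**Figure D3:**
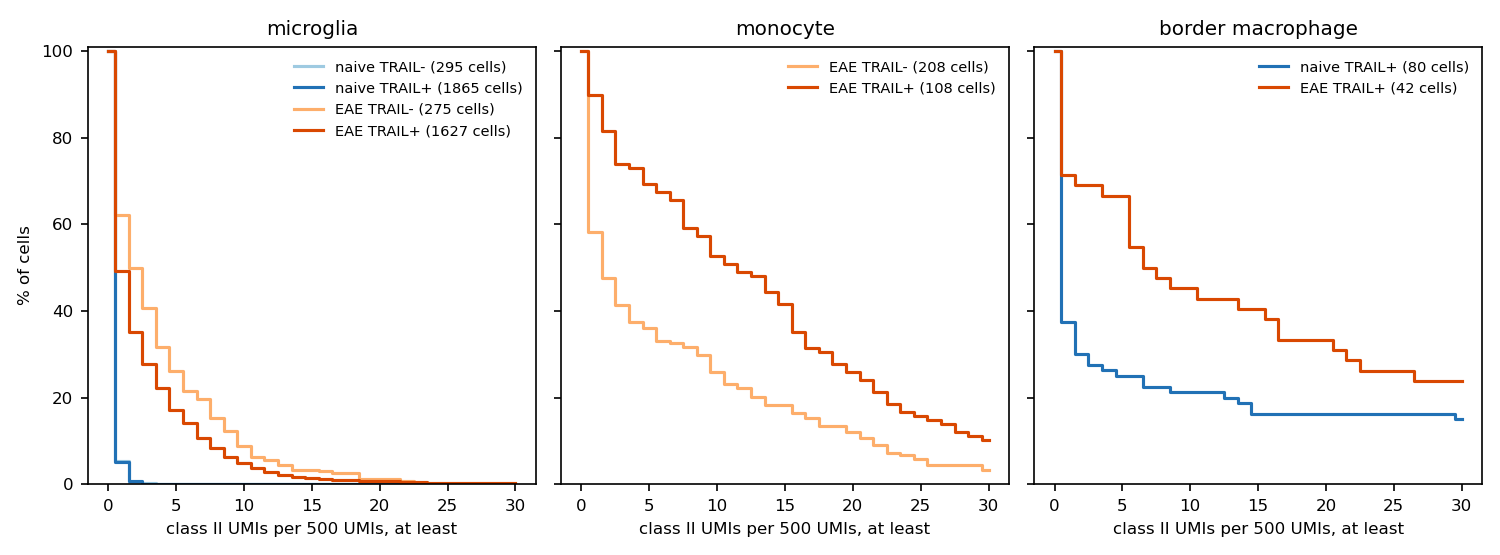
Share of cells (vertical axis, percent) that held at least a given number of UMIs of the 4-gene sum (horizontal axis) after every cell was thinned to 500 UMIs, for microglia, monocytes and border macrophages. Naive microglia drop to about the axis after 5.42% and 5.09% at the first UMI, their curves lying on each other, while 52.8% of EAE TRAIL+ monocytes still hold at least 10.

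Microglial clusters differed in level within 1 library. In EAE TRAIL+ the 4-gene sum was 9006 CPM (8745 to 9272) in the 159 cells led by Apoe, Cybb and Iigp1, and 7322 CPM (6765 to 7914) in the 40 cells led by the interferon-stimulated genes Ifit3, Ifit1 and Ifit2. It was 865 CPM (658 to 1115) in the 43 cells led by Tnfsf9, Dusp2 and Cxcl2, the lowest of the microglial clusters with at least 20 cells there. The first of these clusters held 22 cells in naive TRAIL+, with 130 CPM, so the same cluster held little class II RNA in naive mice.

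Summed over each class, TRAIL+ and TRAIL- differed in opposite directions in microglia and in monocytes of EAE mice. In microglia the 4-gene sum in TRAIL+ was 0.718 (0.692 to 0.744) of that in TRAIL-, and 0 of 6 genes were called, against 2.62% of 3200 genes in either direction. Single genes ranged from 0.559 for H2-Ab1 to 0.898 for H2-DMb1. In naive microglia 1 of 3 genes with enough UMIs was higher in TRAIL+, H2-DMb1 at 2.15-fold (1.35 to 3.64), against 0.314% of 3182 genes. The naive 4-gene ratio of 1.45 (1.07 to 1.99) rests on few cells and did not keep its direction when cells were classed otherwise.

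Monocytes of EAE carried more class II RNA than microglia in the same library. The 4-gene sum was 11660 CPM in TRAIL- and 25300 CPM in TRAIL+, and TRAIL+ over TRAIL- was 2.17-fold (2.10 to 2.24). Over 12 other settings this ratio ranged from 1.76 to 2.37 and was at least 2-fold in 6. H2-Aa (2.20-fold), Cd74 (2.26-fold) and H2-Ab1 (2.02-fold, 1.80 to 2.26) were called higher, 3 of 7 genes, against 5.57% of 3157 genes. H2-Eb1 at 1.99-fold and H2-DMb1 at 1.78-fold were below the threshold, and H2-DMa was at 1.23-fold (0.988 to 1.54). Against microglia of the same library, the sum was 1.82-fold higher in monocytes in TRAIL- and 5.50-fold in TRAIL+. In TRAIL- 2 of 7 genes, H2-Aa and H2-Ab1, were at least 2-fold lower in microglia, against 18.3% of 3284 genes. In TRAIL+ 6 of 7 were, against 17.1% of 3319 genes, H2-DMa being the exception. Microglia markers summed to 2902 CPM in the TRAIL- and 8583 CPM in the TRAIL+ monocytes, and their part in the difference between the sorts was not tested.

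TRAIL+ monocytes exceeded TRAIL- ones both in the share of cells and in the level per cell. At 500 UMIs 58.2% of TRAIL- and 89.8% of TRAIL+ monocytes held a UMI of the 4-gene sum, with medians of 9 and 13 UMIs among those cells. At least 10 such UMIs were found in 26.0% and 52.8%.

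Border macrophages, the resident macrophages of meninges and perivascular spaces, held class II RNA without disease. Their 4-gene sum was 16920 CPM in naive TRAIL+, 115-fold above the microglia of that library, with 5 of 6 genes at least 2-fold lower in microglia, against 15.8% of 3272 genes. H2-DMa, the exception, stood at 0.753 (0.491 to 1.21) of the border macrophage level. In EAE TRAIL+ the sum was 33190 CPM, 1.96-fold (1.85 to 2.08) above naive. H2-Aa (2.25-fold), H2-Ab1 (3.01-fold) and H2-DMa (2.23-fold) were called higher, 3 of 6 genes, against 7.94% of 1561 genes, while H2-Eb1 (1.82-fold) and Cd74 (1.72-fold) were not. At 500 UMIs the share of these cells with a UMI of the sum was 37.5% in naive and 71.4% in EAE. Among the 30 cells that held any in each library, the median was 13.5 UMIs in naive and 16 in EAE and the mean 22.1 and 20.5, so that the share of cells differed while the median and the mean per such cell ranked the libraries in opposite order. Markers of microglia were shared by this class, with 9 of 15 and 8 of 15 seen in at least 20% of naive and EAE cells.

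The balance of the genes differed between classes as well as their level. Cd74 gave 3.68 UMIs per H2-Aa UMI in naive TRAIL+ microglia, 1.57 and 1.93 in EAE TRAIL- and EAE TRAIL+ microglia, 1.05 and 1.07 in monocytes, and 1.33 and 1.01 in naive and EAE border macrophages. The intervals of EAE microglia (1.45 to 1.69 and 1.86 to 2.003) lay above those of monocytes (0.990 to 1.11 and 1.02 to 1.13). H2-DMa gave 5.47 UMIs per H2-Aa UMI in naive TRAIL+ microglia, 0.194 and 0.185 in EAE microglia, 0.0853 and 0.0478 in monocytes and 0.0365 and 0.0361 in border macrophages. Per H2-Aa UMI, microglia thus held more invariant chain and more H2-DMa than border macrophages in both TRAIL+ libraries, and more than monocytes in both EAE libraries. The naive TRAIL+ microglial ratios rest on 83 H2-Aa UMIs, 48 of them in the 58 cells led by Apoe and Lgals3bp. Only 5 of those 58 cells held a UMI of the 4-gene sum, and 2 cells held 109 of the 114 such UMIs. The other 1807 naive TRAIL+ microglia held 35 UMIs of H2-Aa, 269 of Cd74 and 444 of H2-DMa. Both ratios were thus higher without that cluster.

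Co-detection was read at 500 UMIs per cell. At least 3 of the 7 genes were found in 27.6% and 16.7% of EAE TRAIL- and EAE TRAIL+ microglia, in 0% and 0.107% of naive TRAIL- and TRAIL+ microglia, where none of 295 cells allows a share of up to 1.02% taken as 3 cells and of up to 1.24% by the exact interval, in 35.1% and 68.5% of monocytes and in 21.3% and 59.5% of naive and EAE border macrophages. In EAE TRAIL+ microglia Cd74 was found in 82.0% (77.9 to 85.5) of the 416 cells with H2-Aa and in 27.7% (25.2 to 30.3) of the 1211 without. H2-Aa was found in 14 of the 18 cells with Ciita, 77.8% (52.4 to 93.6), and in 24.98% (22.9 to 27.2) of the cells without it. Cells with H2-DMa held H2-Aa in 43.5% (35.8 to 51.3) against 23.5% (21.4 to 25.8).

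In naive TRAIL+ microglia H2-Aa was too rare to read its co-detection with the loading genes. It was seen in 1 of 120 cells with H2-DMa, 0.833% (0.0211 to 4.56), and in 0.745% (0.397 to 1.27) of the rest. In border macrophages the genes were found together: all 22 naive and all 28 EAE cells with H2-Aa also held Cd74, as did 8 of 58 and 2 of 14 cells without H2-Aa. In TRAIL+ monocytes 98.7% of 79 cells with H2-Aa held Cd74, against 55.2% of 29 without.

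Endothelium, pericytes and choroid plexus showed low levels that rested on few cells. In the TRAIL- sort the 4-gene sum was 35.7 CPM in naive and 282 CPM in EAE endothelium, 7.90-fold (5.55 to 11.5), and 25.2 and 333 CPM in pericytes, 13.2-fold (7.18 to 27.0). Choroid plexus epithelium, which makes cerebrospinal fluid, held 8.71 CPM (3 UMIs) and 686 CPM, 78.7-fold (26.3 to 388). H2-Aa and Cd74, the 2 genes with enough UMIs, were called higher in all 3 classes, against 2.25% of genes in endothelium, 2.92% in pericytes and 8.02% in choroid plexus. No naive UMI of H2-Aa was found in choroid plexus, and its EAE level was at least 23.4-fold higher when the naive level is set at 3 UMIs, with an exact interval that starts at 17.99-fold.

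The cells behind these sums were few. In EAE choroid plexus 1 cell of 8009 UMIs held 95 of the 111 UMIs, or 85.6%, and all 12 UMIs of H2-DMa, and the next cell held 2. Without that cell the sum was 104 CPM (59.5 to 169). In EAE endothelium 1 cell held 57 of 159 UMIs together with 85 UMIs of 8 myeloid genes (C1qa, C1qb, C1qc, Csf1r, Ccr2, Lyz2, Mrc1 and Cx3cr1), and the sum was 182 CPM (148 to 221) without it. In EAE pericytes 1 cell held 43 of 162 UMIs, and the sum was 245 CPM (203 to 294) without it. With called doublets left out, EAE over naive was 3.55-fold in endothelium and 4.43-fold in pericytes. With every cell left out that held any UMI of the myeloid marker lists, it was 1.21-fold and 3.93-fold.

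Cells with no UMI of the 8 myeloid genes were read on their own. In endothelium the 406 such EAE cells held 67.8 CPM (45.8 to 96.8) and the 1030 naive ones 37.1 CPM (25.96 to 51.3), so that the intervals overlapped. In pericytes the levels were 105.5 CPM (75.7 to 143) in EAE and 26.4 CPM (12.7 to 48.5) in naive mice, and did not overlap. Class II UMIs per UMI of the 8 genes gave a second view. In EAE TRAIL- the ratio was 0.485 (0.474 to 0.497) over microglia, monocytes and border macrophages together, 0.496 (0.421 to 0.582) in barcodes of under 200 UMIs, 0.497 (0.409 to 0.602) in pericytes and 0.363 (0.301 to 0.436) in endothelium. With all cells, the pericyte interval thus held the ratios of the myeloid classes and of the smallest barcodes, and endothelium lay below the myeloid classes with an interval that overlapped the one of the smallest barcodes. Without the 1 cell of each class that held most class II UMIs, the ratio was 0.388 (0.311 to 0.481) in pericytes, whose interval still overlapped both. It was 0.289 (0.2295 to 0.361) in endothelium, which overlapped neither. The cell left out was picked by its class II UMIs, while the myeloid classes and the smallest barcodes kept all of theirs. The trimmed ratios are therefore not a like comparison. Whether the class II UMIs of the vessel classes were made by the vessel cells was not tested. Choroid plexus stood apart at 3.83 (2.52 to 5.98), and at 0.800 (0.388 to 1.63) without its 1 high cell. In naive TRAIL- the ratios were 0.0784 in the myeloid classes, 0.0893 in endothelium, 0.0821 in pericytes and 0.147 in barcodes of under 200 UMIs. Of the 934 class II UMIs behind that myeloid ratio, 854 lay in 11 border macrophage-like cells. Microglia of that library held 48 class II UMIs beside 10837 UMIs of the 8 genes. Their ratio was 0.00416 (0.00303 to 0.005565) without the cell that held most class II UMIs. The ratios of the myeloid classes leave out an unnamed cluster with Ccr7 and Ccl17 among its leading genes. It held 37.1% of the 4-gene sum in naive TRAIL- and 15.95% in EAE TRAIL-, and a ratio that includes it was not computed.

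**Figure D4:**
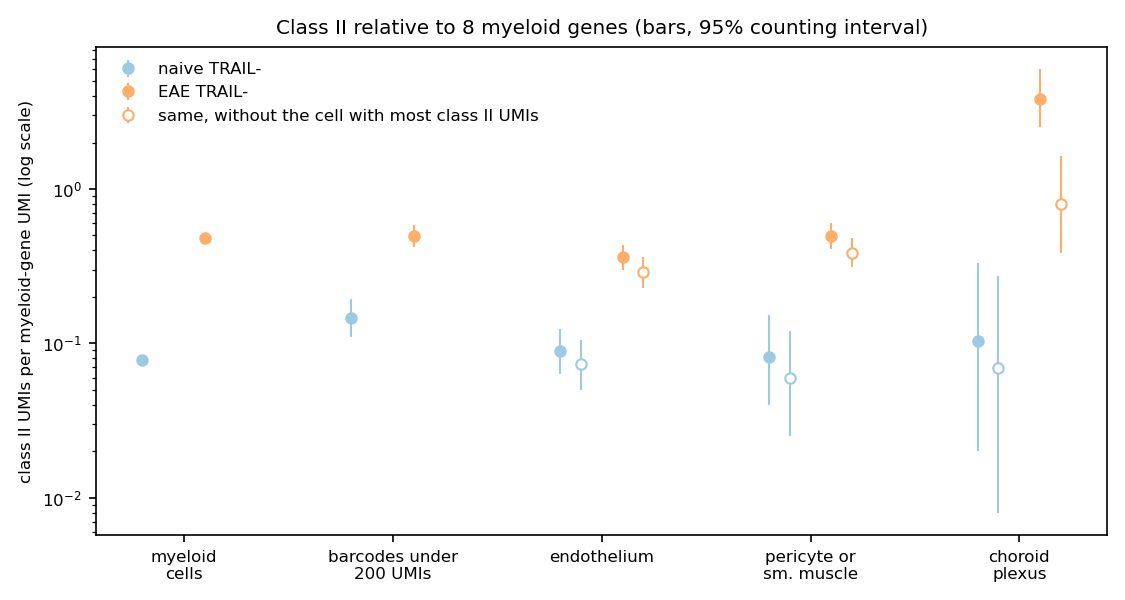
UMIs of the 4-gene sum per UMI of 8 myeloid genes (log axis) in the 2 TRAIL- libraries, with 95% counting intervals, for the myeloid classes together, barcodes of under 200 UMIs and 3 non-immune classes, and as open circles without the cell that held most class II UMIs. The EAE pericyte point (0.497) sits level with microglia, monocytes and border macrophages together (0.485) and moves to 0.388 without 1 cell. The choroid plexus point moves from 3.83 to 0.800.

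In 3 of the 4 libraries classes that were a small part of the cells held most class II RNA, while in EAE TRAIL+ microglia, 89.7% of kept cells, held 58.7% of the 4-gene sum. In naive TRAIL- 11 border macrophage-like cells, 0.487% of kept cells, held 54.1% of the UMIs of the 4-gene sum, although only 2 of 13 class markers reached 20% of those 11 cells. A further 37.1% was held by 4 cells of an unnamed cluster with Ccr7 and Ccl17 among its leading genes. In naive TRAIL+ border macrophages were 3.59% of cells and held 63.4% of the sum, microglia were 83.7% and held 15.1%, and 3 cells of the unnamed cluster held 20.7%. In EAE TRAIL- monocytes were 13.02% of cells and held 49.6%, microglia were 17.2% and held 27.8%, and 28 cells of the unnamed cluster held 15.95%. In EAE TRAIL+ monocytes held 31.3% and border macrophages 9.76%.

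The other genes of the pathway were read from lists of transcription factors (13 genes), endosomal processing (11), costimulation and adhesion (7) and other class II genes (4). Between EAE and naive microglia of TRAIL+, 1 of 11 processing genes was higher, Ifi30, a thiol reductase of the endosome, from 135 to 343 CPM (2.54-fold), and of 4 costimulatory genes 1 was, Cd274, which encodes the inhibitory ligand PD-L1, from 26.9 to 83.6 CPM (3.11-fold), where higher calls made up 2.52% of all genes compared. None of the processing and costimulatory genes was lower. The median log2 ratios of these lists were 0.36 and 0.44, and that of 7 transcription factors was -0.21, beside -0.05 over all genes compared.

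In TRAIL- microglia Ifi30 (4.43-fold) and Cd274 (3.47-fold) were again at least 2-fold higher. They were joined by Irf1, an interferon-induced transcription factor, at 2.32-fold and by the tetraspanin gene Cd63 at 3.60-fold, while Cst3, a secreted inhibitor of cathepsins, was lower at 0.407. Of 11 processing genes 2 were thus higher and 1 lower, and of 4 costimulatory genes 1 was higher. Higher calls made up 8.04% and lower calls 8.65% of all genes compared there. The median of the 7 transcription factors was -0.48 on the log2 scale, beside -0.09 over all genes. Cst3 in TRAIL+ stood at 0.524, from 28730 to 15050 CPM, just short of the threshold. In border macrophages of EAE TRAIL+ Ctss, the protease that trims the invariant chain (2.51-fold), and Ifi30 (4.73-fold) were higher, 2 of 10 processing genes. Cst3 (0.495), 1 of the same 10, and Icam1 (0.308), 1 of 3 costimulatory genes, were lower. Higher calls made up 7.94% and lower calls 14% of all genes compared.

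TRAIL+ monocytes of EAE, compared with TRAIL- ones, had 3 of 10 processing genes higher: Cd63 (4.05-fold), the protease gene Ctsd (2.53-fold) and Cst3 (2.35-fold), where higher calls made up 5.57% of all genes compared. Microglia markers stood at 2902 and 8583 CPM in these TRAIL- and TRAIL+ monocytes, and Cst3 at 1281 and 3013 CPM, beside 15050 CPM in EAE TRAIL+ microglia. The part of microglial RNA in these differences was not tested. The TRAIL+ monocytes had Irf1 lower at 0.275, 1 of 7 transcription factors, and Cd40 (0.351) and Cd274 (0.391) lower, 2 of 6 costimulatory genes, where lower calls made up 6.62% of all genes compared. Higher class II levels in TRAIL+ monocytes stood beside lower levels of Irf1, Cd40 and Cd274. In microglia the same contrast gave 1 call over these lists, Jak2 at 0.455, where calls in either direction made up 2.62% of 3200 genes. The lists had 8 transcription factors, 11 processing genes, 4 costimulatory genes and 1 other class II gene with enough UMIs there.

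H2-Oa and H2-Ob encode H2-DO, which restrains H2-DM. H2-Oa of microglia stood at 14.8, 35.0, 53.1 and 52.6 CPM and H2-Ob at 40.3, 48.2, 23.0 and 40.1 CPM. EAE over naive TRAIL+ was 1.51-fold (1.18 to 1.93) for H2-Oa and 0.832 (0.653 to 1.06) for H2-Ob, both below the level minimum, and H2-Ob thus did not follow the chains. Monocytes held 5.41 and 15.7 CPM of H2-Oa and 7.21 and 6.26 CPM of H2-Ob in EAE TRAIL- and EAE TRAIL+, the reverse of the order of the chains between these classes. The copy gene H2-DMb2 stood at 4.24, 1.94, 14.2 and 7.91 CPM in microglia.

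Genes outside these lists were ranked by likeness to the mean log2(CPM + 1) of H2-Aa, H2-Ab1 and Cd74 over 25 sums, each of 1 class in 1 library, among 3967 genes. The sums share libraries, so the correlations describe these sums only. The 10 highest Pearson correlations were those of Ifi207 (0.9501), Ms4a4c (0.905), AB124611 (0.900), Wfdc17 (0.895), Cybb (0.883), Plbd1 (0.883), Fau (0.873), Lyz2 (0.872), Cxcl9 (0.868) and Ccl5 (0.866). Ifi207 is an interferon-inducible gene, Cybb encodes a subunit of the phagocyte oxidase and Cxcl9 an interferon gamma-induced chemokine. Lyz2 and Ms4a4c are on the monocyte marker list that was used to name the classes. With Spearman's correlation 5 of the 10 remained among the first 10. With a pseudocount of 10 in place of 1, 8 did, while Fau fell to rank 14 and Cxcl9 to rank 35.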

How the data were processed

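The authors deposited 1 table of counts per library, with barcodes in rows and gene symbols in columns, as whole-number UMI counts without normalization. Counting settings and strand were not given in the sources used here, and Bowtie and GRCm38 were used per the submitters' processing notes. The 7 genes, the marker lists and the pathway lists were chosen with earlier results of these data known.

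Barcodes of at least 500 UMIs with at most 20% mitochondrial UMIs were kept. No barcode below 100 UMIs was listed in the tables. Cells of all libraries were clustered together without class II genes in scanpy 1.11.5 (Python 3.11.15): scaling to 10000 UMIs, log1p, 2000 variable genes, 30 principal components, 15 neighbours, Leiden at resolution 1, seed 0. Myeloid cells were clustered again at resolution 1.5, a step chosen after seeing the data. A cluster took a name from a list with at least 3 markers among its 50 leading genes and at least 2 among the first 10, and otherwise stayed unnamed. Borders between rebuilt classes are choices of this processing.

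Raw counts were summed per class and library, and the intervals came from scipy 1.17.1. Cells were thinned to 500 UMIs for shares and co-detection. No p-value was computed. Named genes were the 7 genes, calls in the pathway lists, of which 1 gene is not reported here, and the 10 most similar genes. Doublets were kept and were left out as an alternative: Scrublet in scanpy called 1.82%, 0.180%, 1.75% and 0.221% of kept cells in the 4 libraries, naive before EAE and TRAIL- before TRAIL+. The TRAIL+ rates are low and doublets there may have gone uncalled. edgeR 4.0.16 gave TMM factors for 1 alternative. On simulated counts with 200 changed genes, the intervals held the true ratio for 95.1% of 3210 genes in the microglia TRAIL+ comparison. These counts were drawn with the Poisson counting error that the intervals assume. The coverage therefore checks the calculation only and cannot speak to differences between cells or mice. In the simulated border macrophage comparison 5.36% of unchanged genes were called at least 2-fold apart, the highest share of the comparisons simulated.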

Additional observations from a re-analysis of the deposited data

Results flagged for a closer look

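The TRAIL+ over TRAIL- ratio of class sums in EAE mice lay below 1 in microglia and above 1 in monocytes for 4 genes and their sum. The 4-gene sum stood at 0.718 in microglia and 2.17 in monocytes. H2-Aa stood at 0.651 and 2.20, and H2-Ab1 at 0.559 and 2.02. H2-Eb1 stood at 0.653 and 1.99, and Cd74 at 0.801 and 2.26. With 1 library per group the difference between the classes was not tested.

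Class II RNA was also high in cells outside the 6 classes. In EAE TRAIL- an unnamed cluster of 28 cells with Ccr7, Vim, Crip1 and Ccl17 among its leading genes held 41730 CPM (39950 to 43560) of the 4-gene sum, the highest level of any group of at least 20 cells in that library. Ccr7, a receptor that guides dendritic cells to lymph nodes, was seen in 40.5% of the 37 cells of this cluster in all 4 libraries together and Fscn1, an actin-bundling gene of mature dendritic cells, in 29.7%. In the 28 cells of EAE TRAIL- 4 of 12 dendritic cell markers reached 20% of cells. No marker list met the naming rule for this cluster. An unnamed cluster of 20 cells led by Vtn, Igfbp7 and Cldn5, which mark vessel cells, held 5174 CPM (4456 to 5976) in EAE TRAIL-, and 2 of its cells held 61.1% of those UMIs. The same 20 cells carried monocyte markers at 14800 CPM and microglia markers at 8083 CPM, beside endothelial markers at 6825 CPM and pericyte markers at 6881 CPM.

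Barcodes of under 200 UMIs, which were left out of all classes, held 2653 CPM (2319 to 3021) in EAE TRAIL- and 4704 CPM (4222 to 5226) in EAE TRAIL+. In naive TRAIL- and naive TRAIL+ they held 582 CPM (442 to 752) and 602 CPM (463 to 768).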

How the results depend on the processing

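Ratios of the 4-gene sum (log2) were recomputed under other settings, and no called ratio changed direction. The cause of each shift was not tested. For EAE over naive microglia in TRAIL+ (4.97), values were 4.81 at 1000 UMIs per barcode, 4.43 at 10% mitochondrial UMIs, 4.50 at Leiden resolution 0.5, 5.17 when clustered with class II genes, 3.88 for cells classed 1 by 1, and 4.80 with TMM. Alternatives chosen after seeing the data gave 4.12 with 1 round of clustering, 5.23 without the highest cell and 5.36 without the cluster that held it. In TRAIL- (5.98) the values were 3.77 at 1000 UMIs, 4.37 at 10% mitochondrial UMIs, 3.33 and 3.24 at resolutions 0.5 and 2, 2.66 for cells classed 1 by 1, and, added later, 4.44 with 1 round and 3.47 with myeloid cells at resolution 1. For naive TRAIL+ over TRAIL- microglia (0.53), which had no call, these 7 settings gave -2.02, -0.60, -1.66, -2.21, -1.72, -0.13 and -1.95. For EAE TRAIL+ over TRAIL- microglia (-0.48), values were -0.98 at 1000 UMIs, -0.54 at 10% mitochondrial UMIs, -0.29 with TMM and -0.42 without the cluster named above. For monocytes (1.12), values were 0.97 at 1000 UMIs, 1.24 at 10% mitochondrial UMIs, 0.88 at resolution 0.5, 0.96 for cells classed 1 by 1, 0.93 with TMM, 0.90 with 1 round and 0.82 with myeloid cells at resolution 1, so that 6 of these 7 lay under 2-fold. For border macrophages (0.97), values were 0.78 at 1000 UMIs, 0.49 at 10% mitochondrial UMIs, 1.31 and 0.67 at resolutions 0.5 and 2, and 0.62 when clustered with class II genes. For endothelium (2.98), values were 4.14 at 1000 UMIs, 2.26 at 10% mitochondrial UMIs, 1.83 without doublets and 0.27 without cells holding a myeloid marker UMI, and for pericytes (3.72) 5.43 at 1000 UMIs, 2.15 without doublets and 1.97 without cells holding a myeloid marker UMI. For choroid plexus the setting named last, and leaving out the highest cell, gave no ratio because too few UMIs or cells remained. Genes called 2-fold apart in microglia TRAIL+ numbered 95 at a mean of 50 CPM, 225 at 20 CPM, 45 at 100 CPM and 1232 with no minimum, and in TRAIL- 542, 1383, 235 and 1457. In the same order they numbered 38, 329, 5 and 1356 for naive TRAIL+ over TRAIL-, and 84, 405, 18 and 1644 for EAE TRAIL+ over TRAIL- microglia. They numbered 385, 1001, 152 and 1012 in monocytes, 173, 663, 51 and 1162 in endothelium, 269, 963, 58 and 963 in pericytes, and 562, 882, 157 and 882 in choroid plexus. No paired analysis was possible because each group is 1 library and no result comes from a test. Depth limits the naive levels: chain genes of naive TRAIL- microglia rest on 7 UMIs. Ratios of the 4-gene sum that use these cells also moved when cells were classed otherwise.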
